A study of Mus musculus with 3 samples.

Results

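The genes described here are 39 interferon response genes of the mouse, taken by symbol from a fixed list out of the 24982 gene symbols in the deposited tables. RNA sequencing was done on LKS cells, a fraction of the bone marrow that lacks lineage markers, carries Kit and Sca1 and holds haematopoietic stem cells and early progenitors. Cells sorted from recipient mice lacking CD73 (CD73-/-) gave 1 library, the CD73 KO library, and cells sorted from wild-type (WT) recipients gave 2 libraries. CD73, encoded by Nt5e, is a cell-surface enzyme that makes adenosine from extracellular AMP. The sample descriptions also speak of LLP cells, a term that the labels do not explain. The sources used here do not give strain, age, pooling of animals, or whether donor or host cells were sorted. Nothing in the labels says that the WT libraries came from separate animals, so every p-value measures only how far these samples vary, and that variation may be technical.

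Interferons are secreted proteins, and cells make those of type I on sensing viral or self nucleic acid. Type I interferon binds the receptor Ifnar1 with Ifnar2, and the kinases Jak1 and Tyk2 then activate a complex that holds Stat2 and Irf9 and binds the interferon-stimulated response element (ISRE) in promoters. Type II interferon binds Ifngr1 with Ifngr2 and acts on the gamma-activated site (GAS), and it is the stronger inducer of the GTPases of the Gbp and Irg families. Stem and progenitor cells of the marrow are known to respond to both interferons, and to carry a basal level of some of their target genes.

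The list was read in 4 classes. There were 7 GTPases (Gbp2, Gbp3, Gbp6, Gbp7, Irgm1, Igtp and Iigp1), 12 genes of the Ifit, Oas and Mx families, 4 regulators (Stat2, Irf1, Irf7 and Irf9) and 16 other members.

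The promoters of the members are shown first, because the ISRE and the GAS are the sequences through which interferon acts on a gene. RefSeq promoter windows (build GRCm38.p6, from 250 bases before to 50 bases after the start site) were matched to 29 of the 39 members. They were searched for the ISRE core, taken as 2 copies of TTTC with any 2 bases between them, which read as 2 copies of GAAA on the other strand, and for the GAS TTCNNNGAA, which reads the same on both strands. The core can overlap itself at a spacing of a few bases, and each overlapping match was counted. The ISRE core was found in 19 of the 29 members, or 65.5%, and in 3.99% of the 27025 genes with a window. All 5 GTPases with a window held it, as did 6 of 9 Ifit and Oas genes, 1 of 4 regulators and 7 of 11 other members. The GAS was found in 6 of the 29 members, or 20.7%, and in 9.55% of all genes with a window. These matches describe the letters in these windows and do not show binding. The stretches below belong to members with clear counts in some library, and to Ifit1 and Rsad2, which had no counts in any library. Each runs 5′ to 3′ along the gene's strand with the ISRE core matches in capitals.
Gbp3, chr3:142559977-142560036, plus strand: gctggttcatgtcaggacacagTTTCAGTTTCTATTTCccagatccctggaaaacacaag
Gbp7, chr3:142530258-142530317, plus strand: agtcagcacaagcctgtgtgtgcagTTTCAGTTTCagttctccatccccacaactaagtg
Gbp2, chr3:142620579-142620638, plus strand: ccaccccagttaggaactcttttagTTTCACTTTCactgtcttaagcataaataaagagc
Igtp, chr11:58199496-58199555, plus strand: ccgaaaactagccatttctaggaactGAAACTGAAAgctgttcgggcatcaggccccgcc
Irgm1, chr11:48871421-48871480, minus strand: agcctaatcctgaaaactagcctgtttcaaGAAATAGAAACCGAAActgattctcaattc
Isg15, chr4:156200856-156200915, minus strand: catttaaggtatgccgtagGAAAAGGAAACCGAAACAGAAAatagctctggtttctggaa
Bst2, chr8:71537565-71537624, minus strand: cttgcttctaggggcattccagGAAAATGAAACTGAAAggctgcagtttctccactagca
Oas3, chr5:120777700-120777759, minus strand: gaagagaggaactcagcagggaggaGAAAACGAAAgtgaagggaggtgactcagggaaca
Oas1a, chr5:120907526-120907585, minus strand: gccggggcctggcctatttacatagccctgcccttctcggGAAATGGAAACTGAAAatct
Oas1g, chr5:120887614-120887673, minus strand: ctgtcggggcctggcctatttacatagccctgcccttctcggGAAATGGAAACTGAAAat
Ifit1, chr19:34640770-34640829, plus strand: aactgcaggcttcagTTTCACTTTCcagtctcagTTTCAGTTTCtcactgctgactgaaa
Rsad2, chr12:26456538-26456597, minus strand: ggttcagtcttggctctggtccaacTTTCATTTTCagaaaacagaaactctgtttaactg

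**Figure D1:**
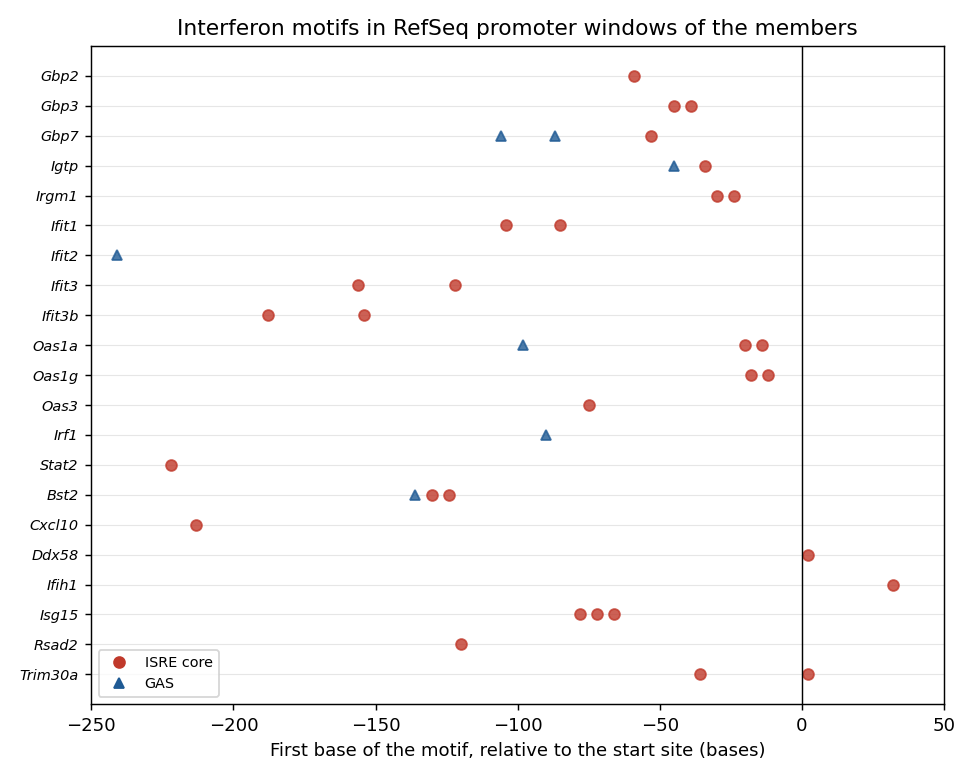
Position of the ISRE core (red circles) and GAS (blue triangles) in the RefSeq promoter windows of the members that hold either motif, with the first base of each match in bases from the start site on the horizontal axis and 1 gene per row. The 5 GTPases carry the ISRE core within 59 bases upstream of the start site, whereas in the Ifit genes that hold it the first bases lie between -188 and -85. A core near the start site is not confined to the GTPases, since those of Oas1a and Oas1g begin between -20 and -12.

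Depth was low. The gene counts summed to 264704 in the CD73 KO library and to 361638 and 324954 in WT replicates 1 and 2, so a single count was worth 3.78 CPM (the gene count scaled to that total) in KO and 2.77 and 3.08 CPM in WT. The targeted gene Nt5e had 0 counts in all 3 libraries and could not check the label. Kit, part of the sorting gate, had 147 counts in KO and 187 and 207 in WT, and Ly6a, which encodes Sca1 and is itself induced by interferon, had 36 in KO and 60 and 19 in WT. No member exceeded 101 counts in any library. Of the 39 members, 6 had 0 counts in all libraries, 14 had between 1 and 19 counts at most, and 19 reached 20 counts in some library. The intervals given below are 95% exact intervals that cover counting error only.

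None of the members passed the test between KO and WT. With edgeR's quasi-likelihood test and Benjamini-Hochberg adjustment over all 7984 genes tested, 0 of the 24 tested members were called, where 8 of all genes tested (0.1%) were called, all of them higher in KO. The adjusted p of the members ran between 0.22 and 0.99. At an unadjusted p under 0.05, Cmpk2, Gbp3 and Isg15 were on the higher side (3 of 24 members, against 3.53% of all genes tested) and Oas2 was on the lower side (1 of 24, against 6.51%). DESeq2 gave the same 4 members an unadjusted p under 0.05 and called 0. Of the 4, only Oas2 received an adjusted p from DESeq2 (0.21), so Gbp3, Isg15 and Cmpk2 could not be called there. The SE of a member's log2 fold change was at least 1.01, so only very large differences could have passed. In the filter on low counts 4 of the 24 tested members passed through the KO library alone, which by itself favours higher values, and 6 passed through WT libraries alone.

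Immunity-related GTPases and guanylate-binding proteins, which coat and disrupt the vacuoles of intracellular pathogens, gave the highest KO values relative to WT of the classes. Their summed level was 744 CPM in KO, and 196 and 345 CPM in WT replicates 1 and 2 (270 ± 105, SD, n = 2), a ratio of 2.75 to the WT mean. The KO sum lay above both WT sums, and was 1.92 higher than WT replicate 1 and 1.11 higher than WT replicate 2 on the log2 scale. No test was made on a sum over chosen members, and the KO value rests on 1 library.

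Igtp, also called Irgm3, a regulator of the other Irg proteins, had 59 counts in KO and 29 and 19 in WT. That is a level of 223 CPM in KO and 69.3 ± 15.4 CPM in WT (SD, n = 2), and the KO library was above both WT libraries, which lay close to each other. The log2 fold change was 1.72 (SE 1.13, edgeR adjusted p 0.67). Igtp lies on chromosome 11 at 58199556 to 58207592 (mm10) and is annotated as overlapping Irgm2 on the same strand, with which it shares 11.8% of its transcript 50-mers. Irgm2, another Irg regulator, had 22 counts in KO and 0 and 3 in WT, so the split between these neighbours is uncertain.

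Gbp3, Gbp7 and Gbp2, which code for guanylate-binding proteins, lie next to each other on chromosome 3 between 142530336 and 142638008, yet their values in the 3 libraries ran apart. Gbp3 had 57 counts in KO and 2 and 10 in WT, a level of 215 CPM in KO and 18.2 ± 17.9 CPM in WT (SD, n = 2). Its log2 fold change was 3.60 (SE 1.39, edgeR adjusted p 0.27), and was 5.21 against WT replicate 1 alone and 2.84 with WT replicate 2. Gbp7 had 36 counts in KO and 19 and 15 in WT, and here too KO lay above both WT libraries, which differed little from each other. Gbp2 had 5 counts in KO and 11 and 56 in WT, so that WT replicate 2 stood apart and KO was close to WT replicate 1. The log2 fold change was 1.49 (SE 1.40) for Gbp7 and -2.35 (SE 1.73) for Gbp2, and that of Gbp2 was -0.65 against WT replicate 1 alone and -3.11 with WT replicate 2. The 3 promoters above all carry the ISRE core between 59 and 39 bases before the start site, Gbp2 included.

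Irgm1 and Iigp1 stood just outside the 20-count minimum used for single genes. Irgm1, which keeps Irg proteins inactive on the cell's own membranes, had 18 counts in KO and 6 and 2 in WT. Iigp1, an effector that loads onto pathogen vacuoles, had 17 in KO and 2 and 4 in WT. KO was above both WT libraries for each, and neither passed the test (edgeR adjusted p 0.80 for both). Gbp6 had 5 counts in KO and 2 and 6 in WT, and was not tested. Of its transcript 50-mers 70.7% are shared with other genes, mostly Gm43302, so its counts are uncertain. Ifi47, an Irg GTPase kept among the other members, was nearly flat, with 27 counts in KO and 29 and 25 in WT. With Ifi47 counted among the GTPases the KO to WT difference of the class sum was 1.28 on the log2 scale, against 1.46 without it.

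The Ifit, Oas and Mx genes, whose products bind or degrade viral RNA or trap viral particles, gave no common direction. Their summed level was 336 CPM in KO, and 379 and 609 CPM in WT replicates 1 and 2 (494 ± 163, SD, n = 2). KO was thus the lowest library, but it differed from WT replicate 1 by far less than the WT libraries differed from each other. Without Oas2 the difference between KO and the WT mean was 0.047 on the log2 scale, against -0.56 with it.

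Oas2, which makes the second messenger that switches on RNase L, was the furthest below both WT libraries among the members that reached 20 counts. It had 8 counts in KO and 83 and 54 in WT, a level of 30.2 CPM in KO and 198 ± 44.8 CPM in WT (SD, n = 2). The WT libraries were alike and KO was apart from them. The ratio of KO to WT replicate 1 was 0.13 (0.05 to 0.27), and that to WT replicate 2 was 0.18 (0.07 to 0.38). The log2 fold change was -2.66 (SE 1.31, edgeR adjusted p 0.48).

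Oas3, the synthase of the longest products in the family, lies 3.2 kb from Oas2 on chromosome 5 and had the opposite values. It had 40 counts in KO and 18 and 3 in WT, and KO was above both WT libraries. The log2 fold change was 2.37 (SE 1.47, edgeR adjusted p 0.63), and was 1.62 against WT replicate 1 alone and 4.02 with WT replicate 2. Oas1a had 17 counts in KO and 10 and 68 in WT, and Oas1g had 7 in KO and 2 and 52 in WT. For both, KO fell between the WT libraries, and WT replicate 2 was high. The transcripts of these neighbours share 57.6% of the 50-mers of Oas1a, so the division of reads between them is uncertain. Their log2 fold changes of -0.83 (SE 1.34) and -1.58 (SE 1.75) had the opposite sign against WT replicate 1 alone, at 1.23 for Oas1a and 2.21 for Oas1g, and with WT replicate 2 they were -1.65 for Oas1a and -2.53 for Oas1g. Oasl2, an Oas-like protein with ubiquitin-like domains, had 6 counts in KO and 23 and 9 in WT.

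The rest of the class was at or near 0 counts. Ifit1, which binds RNA caps that lack methylation, Oasl1 and Mx2 had 0 counts in all libraries. With a limit of 3 counts for a count of 0, this allows up to 11.3 CPM in KO and 8.30 and 9.23 CPM in WT. Ifit2 had 6 counts in KO and 0 and 3 in WT, Ifit3 had 1 in KO and 0 and 4 in WT, and Ifit3b had 1 in KO and 1 and 4 in WT. Ifit3 and Ifit3b share 51.2% of the 50-mers of Ifit3. Mx1 had 3 counts in KO and 0 and 1 in WT. Mx1 and Mx2 are annotated as transcribed pseudogenes in the C57BL/6J reference assembly. In this rest of the class no difference from both WT libraries was detectable at this depth. For Ifit2 the lower end of the exact interval of the KO ratio was 1.61 for WT replicate 1 and 0.52 for WT replicate 2.

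The Stat and Irf regulators, the factors that switch the other members on, showed KO near or between the WT libraries, which lay at least 2-fold apart on CPM + 5 for each of the 4 except Irf7. Their summed level was 555 CPM in KO, and 583 and 379 CPM in WT (481 ± 145, SD, n = 2), so KO lay within the WT range. Stat2 had 36 counts in KO and 46 and 6 in WT, with KO close to WT replicate 1 in CPM. Its log2 fold change was 0.93 (SE 1.29), and was 0.13 against WT replicate 1 alone and 2.90 with WT replicate 2. Irf1, the factor most directly induced by type II interferon, had 48 counts in KO and 101 and 22 in WT. Irf9, the DNA-binding subunit of the complex with Stat2, had 40 in KO and 26 and 75 in WT. Irf7, which amplifies type I interferon production, had 23 in KO and 38 and 20 in WT. These last 3 genes had log2 fold changes of 0.045 to 0.096 (SE 1.01 to 1.40), with KO between the WT libraries in each.

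Among the other members, Isg15 and Cmpk2 were present in the KO library and at or near 0 counts in WT, and Bst2 was above both WT libraries in KO. Isg15, a ubiquitin-like protein that is attached to newly made proteins, had 24 counts in KO and 0 in both WT libraries. Set against a floor of 3 counts in each WT library, the KO level was 9.82-fold above the higher floor, with counting error in KO left out. The lower end of the exact interval of the ratio was 8.22 for WT replicate 1 and 7.39 for WT replicate 2, and the edgeR adjusted p was 0.29. Its promoter stretch above holds 3 overlapping ISRE cores, the most of any member with a promoter window.

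Cmpk2, a mitochondrial nucleotide kinase, had 42 counts in KO and 0 and 3 in WT. The ratio of KO to WT replicate 2 was 17.2 (5.49 to 86.7), and the fitted log2 fold change was 5.06 (SE 1.77, edgeR adjusted p 0.22). Its neighbour Rsad2, or viperin, lies 12.7 kb away on chromosome 12, and the 2 genes are known to be induced together. Rsad2 nevertheless had 0 counts in all 3 libraries. No ISRE core of the searched form was found in the promoter window of Cmpk2.

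Bst2, or tetherin, which holds budding virus at the cell surface, had 41 counts in KO and 14 and 1 in WT. KO was above both WT libraries, but these differed more than 2-fold from each other. The log2 fold change was 2.89 (SE 1.53, edgeR adjusted p 0.53), and was 2.02 against WT replicate 1 alone and 5.52 with WT replicate 2. Bst2 is also a marker of plasmacytoid dendritic cells, and 7 of 8 other markers of these cells, Siglech and Ccr9 among them, had 0 counts in every library. The eighth, Tcf4, had 34 counts in KO and 22 and 12 in WT.

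The sensors of viral RNA and the remaining members had no common direction. Ddx58, or RIG-I, had 15 counts in KO and 14 and 51 in WT. Ifih1, or MDA5, had 0 counts in KO and 12 and 4 in WT, and the upper end of the exact interval of the KO ratio was 0.49 for WT replicate 1 and 1.86 for WT replicate 2, so no difference from WT replicate 2 was detectable. Parp14, an ADP-ribosyltransferase, had 26 in KO and 5 and 30 in WT, so KO was level with WT replicate 2. Trim30a, a regulator of Toll-like receptor signalling, had 6 in KO and 18 and 15 in WT. Rtp4 had 10 in KO and 0 and 10 in WT, Ifi27l2a 7 in KO and 0 in both WT libraries, and Xaf1 7 in KO and 5 and 0 in WT. Zbp1, a sensor of Z-form nucleic acid, had 4 in KO and 2 and 0 in WT, and Ifi44 had 3 in KO and 3 and 8 in WT. Usp18, which shuts off the type I receptor, and the chemokine Cxcl10 had 0 counts in all libraries.

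**Figure D2:**
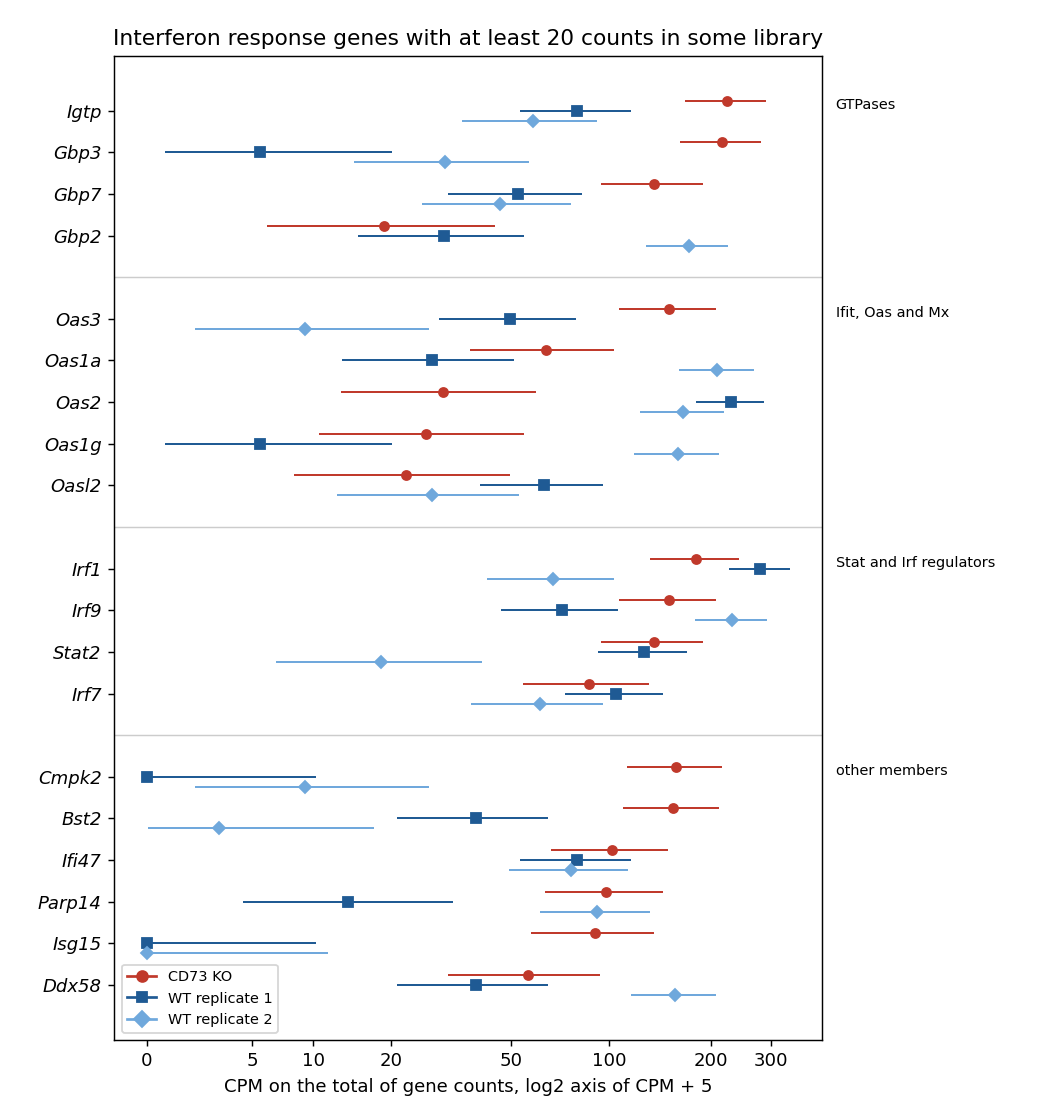
Level of the 19 members that reached 20 counts in a library, in CPM on a log2 axis of CPM + 5, with the CD73 KO library as red circles, WT replicate 1 as dark blue squares and WT replicate 2 as light blue diamonds. Bars are 95% exact Poisson intervals of the count. KO lies at least 2-fold to the right of both WT libraries for Igtp, Gbp3, Gbp7, Oas3, Cmpk2, Bst2 and Isg15, and at least 2-fold to the left for Oas2.

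Levels were also compared library by library, with no estimate of spread. Among the 19 members that reached 20 counts, the KO level in CPM was above both WT libraries in 10, where it was in 29.7% of the 6377 genes with 20 counts. It lay between the WT libraries in 6 members (31.1% of those genes) and below both in 3 (39.1%). Of the 19, 7 were at least 2-fold above both WT libraries in KO on CPM + 5 (Bst2, Cmpk2, Gbp3, Gbp7, Igtp, Isg15 and Oas3), where 11.4% of those genes were. Only Oas2 was at least 2-fold below both, where 20.7% of those genes were. The minimum itself shapes this count, since 6 of the 7 higher members, Igtp being the exception, reached 20 counts in KO only. The same held for 489 of all 730 higher genes. When a mean of 10 counts over the libraries was required instead, an alternative chosen after the data were seen, 6 of 19 members were higher (10.6% of 6502 genes) and 1 was lower (20.7%), with Isg15 no longer in the count. At a minimum of 50 counts 2 of 9 were higher, Gbp3 and Igtp (9.01% of 2831 genes), and 1 was lower (17.2%). Against WT replicate 1 alone 11 of 19 members were higher (21.8% of the 6377 genes) and 2 lower (31.9%). With WT replicate 2 as the only comparison 9 were higher (24.3%) and 5 lower (32.2%).

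The WT libraries were themselves far apart in these genes. In 13 of the 19 members they differed by at least 2-fold on CPM + 5, as they did in 50.6% of the 6377 genes. Irf1, Stat2, Oas3, Oasl2 and Bst2 were higher in WT replicate 1, and Oas1a, Oas1g, Gbp2, Gbp3, Irf9, Ddx58, Parp14 and Cmpk2 were higher in WT replicate 2. No class had all its members high in the same WT library. Over all genes the libraries differed by far more than counting error, with a chi-square per gene of 12.8 and 14.1 between KO and the WT libraries and 12.5 between the WT libraries.

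The fitted fold changes by class followed the sums. The median log2 fold change was 2.14 over the 6 tested GTPases, -0.96 over the 5 tested Oas genes, 0.10 over the 4 regulators and 0.93 over the 9 other tested members, where the median of all genes tested was -0.31. Of the 6 GTPases Irgm1 and Iigp1 passed the filter on low counts through KO alone, and without them the median was 1.61 over 4 genes. Without Isg15 and Cmpk2, which passed in the same way, that of the other members was 0.41 over 7 genes, where the median of all 7370 genes that did not pass through KO alone was -0.47. The median of the other members stayed at 0.93 with Isg15 and Ifih1, each at 0 in a group, set to their bounds. A positive fold change was found in 16 of the 24 tested members and in 43.1% of all genes tested. Over the 20 tested members with a count in every library the median was 0.26, and over the 6296 genes of that kind it was -0.11. The Oas median had the opposite sign, at 1.23, against WT replicate 1 alone, and that of the regulators was -0.059 with WT replicate 1 as the comparison and 1.01 with WT replicate 2. That of the GTPases was 1.77 against WT replicate 1 and 2.18 against WT replicate 2.

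**Figure D3:**
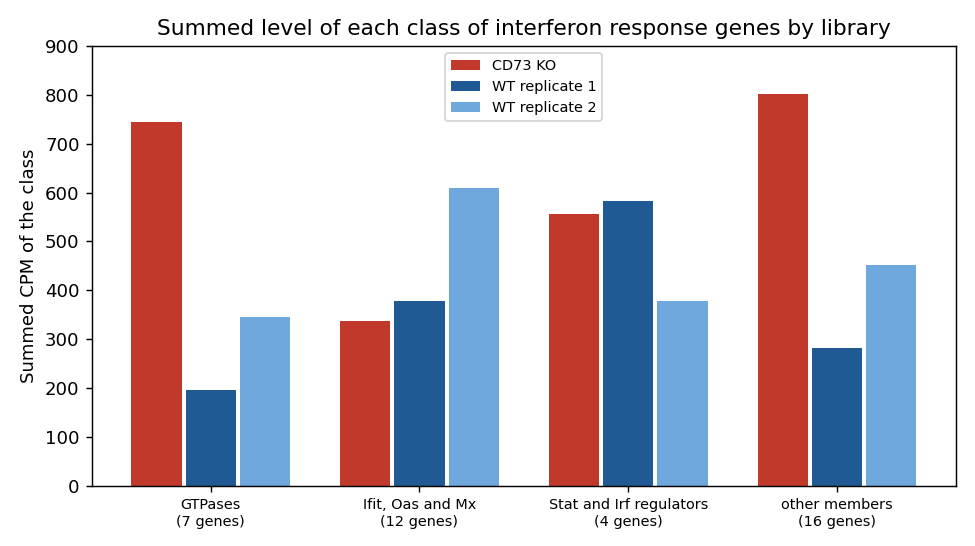
Summed CPM of each class in the CD73 KO library (red), WT replicate 1 (dark blue) and WT replicate 2 (light blue). KO is above both WT libraries for the GTPases (744 CPM) and the other members (801 CPM), below both for the Ifit, Oas and Mx genes (336 CPM) and between them for the regulators (555 CPM).

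**Figure D4:**
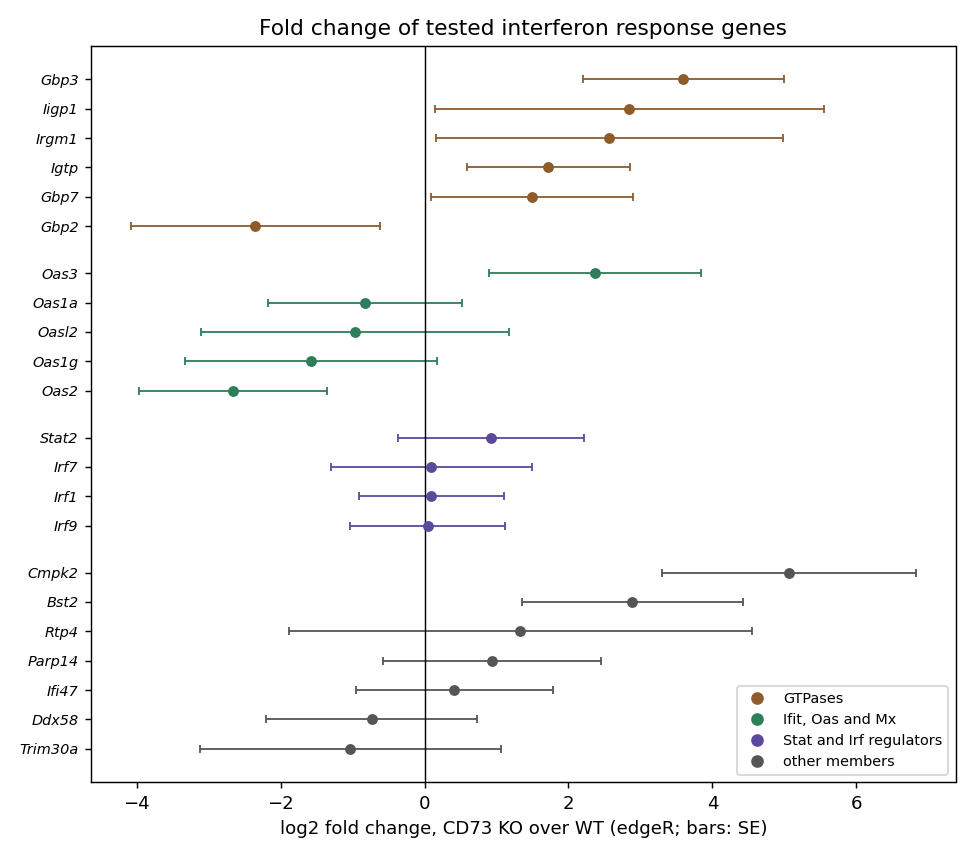
log2 fold change of CD73 KO over WT with its SE (bars) from edgeR for the 22 tested members with counts in both groups, coloured by class. Of the GTPases 5 lie above 0 and Gbp2 below it, 4 of the 5 Oas genes lie below 0, and no member passed the test.

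Levels can be compared between genes only per length, for which the FPKM values deposited by the authors were summed over the transcripts of each gene. In the KO library Bst2 had the highest level of the members at 205 FPKM, followed by Isg15 at 122, Igtp at 112, Irf1 at 97.3 and Gbp3 at 90.1 FPKM. In WT replicate 1 Irf1 led at 149 FPKM, with Irf7 at 59.8 and Oas2 at 59.7. In WT replicate 2 Oas1a led at 112 FPKM, with Irf9 at 105 and Oas1g at 80.3. Bst2 had 50.8 and 4.05 FPKM in WT replicates 1 and 2, and Isg15 was listed at 0 in both. The leading member thus differed in each of the 3 libraries.

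Other genes of the interferon pathway, 81 in all, were read from a separate list by role. Of 53 tested, 0 passed the test in either direction, where 0.1% of all genes tested did. Of the 53, 24 had a positive log2 fold change, as did 43.1% of all genes tested. The median over the 53 was -0.19, where that of all genes tested was -0.31. All 11 ligands listed, interferon beta (Ifnb1) and gamma (Ifng) among them, had 0 counts in every library. Of the receptors, Ifngr1 had 67 counts in KO and 44 and 66 in WT, Ifnar1 20 in KO and 22 and 49 in WT, and Ifnar2 18 in KO and 63 and 25 in WT.

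Of the kinases, Jak1 had 22 counts in KO and 50 and 72 in WT, and Tyk2 had 22 in KO and 14 and 79 in WT. Among sensors and adaptors, Tmem173, or STING, had 38 counts in KO and 34 and 64 in WT, Tbk1 26 in KO and 42 and 15 in WT, and Ikbke 25 in KO and 13 and 16 in WT. Of genes that restrain the response, Socs1 and Socs3 had 0 counts in every library, and the phosphatase Ptpn6 had 65 in KO and 107 and 76 in WT. Adar, the editor of double-stranded RNA, had 39 in KO and 33 and 121 in WT, and Samhd1, which lowers nucleotide pools, had 37 in KO and 67 and 34 in WT. The most abundant further targets were Ly6e (251 counts in KO and 456 and 217 in WT), the peptide transporter Tap1 (242 in KO and 232 and 173 in WT) and the immunoproteasome subunit Psmb8 (167 in KO and 168 and 65 in WT). Tlr9 (21 counts in KO and 0 in both WT libraries) and Helz2 (1 in KO and 27 and 45 in WT), named after their values were seen, were the only tested genes of this list with an unadjusted p under 0.05. That is 1 of 53 on the higher side, against 3.53% of all genes tested, and 1 of 53 on the lower side, against 6.51%.

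Markers of other cell types also differed between the libraries. The summed level of the dendritic cell markers was 1863 CPM in KO and 130 and 132 CPM in WT. Most of the KO sum was from the class II genes H2-Ab1, H2-Eb1 and H2-Aa, which type II interferon also induces. H2-Ab1 had 201 counts in KO and 24 and 11 in WT (edgeR adjusted p 0.0044), H2-Aa 106 in KO and 0 and 9 in WT (adjusted p 0.031) and H2-Eb1 156 in KO and 19 and 21 in WT (adjusted p 0.067). Clec9a, a dendritic cell lectin outside class II, had 27 counts in KO and 0 in both WT libraries (adjusted p 0.23). Not all dendritic cell markers were higher in KO. Itgax had 0 counts in KO and 4 and 0 in WT, and Xcr1 had 3 in KO and 0 and 2 in WT. Of these 9 markers 6 were detected in some library, and Zbtb46, Cd209a and Batf3 were at 0 in every library. Monocyte and macrophage markers, 11 of 13 detected, summed to 604 CPM in KO and 202 and 735 CPM in WT, with Fcgr1 and Mrc1 at 0. Neutrophil markers, 10 of 10 detected, summed to 378 CPM in KO and 830 and 1148 CPM in WT. LKS markers, 12 of 12 detected, summed to 1719 CPM in KO and 2500 and 2871 CPM in WT. In CPM, Kit and Ly6a lay between the WT libraries, Procr lay above both, and the other LKS markers lay below both. Mecom had 0 counts in KO and 31 and 21 in WT (edgeR adjusted p 0.33). Erythroid markers summed to 612 CPM in KO and 429 and 129 CPM in WT, those of B cells to 7.56 CPM in KO and 16.6 and 64.6 CPM in WT, and those of T and NK cells to 155 CPM in KO and 194 and 105 CPM in WT. Stromal and endothelial markers summed to 132 CPM in KO and 252 and 292 CPM in WT. The part of these cells in the values of the GTPases, Isg15, Cmpk2 and Bst2 was not tested, and in bulk RNA fewer cells of a type and less RNA per cell cannot be told apart.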

How the data were processed

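Per the labels' protocols, total RNA came from the RNeasy micro kit and libraries from NEB kits. The authors deposited whole-number counts and FPKM values per RefSeq transcript; the submitters' processing notes name STAR and mm10, and the sources used here do not give the counting and FPKM tools, their settings or strand use. The tables have 42574 transcript rows each. A gene's count was its highest row, since rows repeat shared reads, and CPM was set on the total of gene counts (264704, 361638 and 324954 in KO, WT replicate 1 and WT replicate 2). Of the members 20 had several rows, and the rows of 6 differed in count. As a check of the deposited FPKM unit, the totals implied by FPKM and count were 260230, 358612 and 321420 in the same order.

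KO was compared with WT by edgeR 4.0.16 in R 4.3.3 (filterByExpr, TMM scaling, quasi-likelihood test, Benjamini-Hochberg adjustment, threshold 0.05). There was 1 residual degree of freedom, KO was taken to vary as the WT libraries do, and the common biological coefficient of variation was 0.81. SE is the absolute log2 fold change over the square root of F, and is not given where a group was at 0. Alternatives used DESeq2 1.42.0 and limma 3.58.1. The test was also run on 5 simulations of KO against WT, over 7187 to 7291 tested genes. It recovered 9.2% of genes raised 4-fold and 67.6% of those raised 16-fold. Of genes lowered 4-fold it recovered 0%, and of those lowered 16-fold 5.6%, with 9 false calls in total. The changed genes were drawn from those with a mean of at least 10 counts, so members below that, such as Isg15, are not covered. The simulated spread followed the trend with count level and did not vary from gene to gene around it.

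The members and gene lists were chosen with earlier results of these data known. Every member is accounted for, and members with 20 counts in some library are given singly; of the other pathway genes, those past the test and the 3 most abundant of each role were to be named, and a gene this rule picks is not reported here. Further genes named (Irgm2, Tlr9, Helz2, Socs1, Socs3, Clec9a, H2-Ab1, H2-Aa, H2-Eb1, Itgax, Xcr1, Procr, Mecom) were chosen after their values were seen. Positions are from RefSeq (GRCm38.p6) and overlaps and 50-mers (same orientation only) from GENCODE M21, both on the mm10 assembly.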

Additional observations from a re-analysis of the deposited data

How the results depend on the processing

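No tested member was called under any of the 9 alternatives run, which were other scalings, other filters, the mean of a gene's rows, limma on log2(FPKM + 1) and DESeq2 on filtered or on all genes. The count of all genes called was unstable: 8 in the fit reported, 4 without a filter, 1 with the mean of a gene's rows, 35 with DESeq2 (0 on all genes) and 0 with limma. It was 131 with at least 10 counts in every library or 50 in any, and 0 when library sizes were recomputed over those genes; the cause was not tested. This filter tested 12 of the 24 members, and Isg15, Cmpk2, Oas3 and Bst2 were among those not tested. With limma 535 genes, with recomputed sizes 340 and with DESeq2 on all genes 621 had an unadjusted p under 0.05. DESeq2 on filtered genes gave an adjusted p to 5 of the 24 tested members. The others, Gbp3, Isg15 and Cmpk2 among them, could not be called in that setting. The fold change of Irf9 reversed by a negligible amount with library totals only (-6.7e-05).

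Without Oas2, the most abundant of its class, the log2 ratio of the Ifit, Oas and Mx sum was 0.047. Leaving out each WT library in turn, the log2 ratio of the class sums ran between 1.11 and 1.92 for the GTPases, -0.86 and -0.17 for Ifit, Oas and Mx, -0.071 and 0.55 for the regulators and 0.82 and 1.51 for the other members. The class medians ran between 1.77 and 2.18, -1.65 and 1.23, -0.059 and 1.01, and 0.34 and 2.02 in that order. Without members that passed the filter through KO alone, an alternative added after seeing the data, the GTPase median was 1.61. With 1 WT library left out, the size rule gave 9 to 11 of 19 members higher (21.8% to 24.3% of all genes). It then gave 2 to 5 lower (31.9% to 32.2%). With at least 50 counts 2 of 9 were higher (9.01%). With at least 10 counts in some library 9 of 24 were higher (12.8%) and 2 of 24 lower (21.1%). No count of calls can be had without a WT library, since no residual degree of freedom is left. No paired analysis was possible because KO is a single library that shares no replicate number with WT. Depth limits all of this: a count was worth about 3 CPM. No difference was detectable in genes at 0 counts in every library, and near 0 only large differences could be seen.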
